A study of Homo sapiens with 2 samples.

Results

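The 10 genes described here belong to the Notch pathway. They are the receptors NOTCH1, NOTCH2 and NOTCH3, the ligands JAG1 and JAG2, the nuclear proteins RBPJ, MAML1 and MAML2, and the target genes HES1 and HEY1. They were taken by gene symbol from the platform annotation, in which 17687 genes are named, and each of the 10 has 1 probe set. The set was chosen by the difference of MAML1 between these same 2 arrays, so the values of MAML1 are a description and test nothing. A further 62 Notch genes, listed by role, are set beside them, of which 55 have a named probe set and the others are not analysed here.

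RNA came from 2 lines made from MKN1, a long-established line of human gastric cancer cells, with 1 array each. One line overexpressed RHOA Y42C and the other RHOA wild-type, both from the retroviral vector pBABE after puromycin selection. RHOA is a small GTPase that controls actomyosin contraction, and Y42C replaces a tyrosine with a cysteine. The question the design poses is how transcript levels in cells given the mutant compare with those in cells given the normal protein. Neither an untransfected nor an empty-vector array was analysed here, and the labels do not say whether a line is 1 clone. With 1 array per line there is no replicate error and no test, so every difference compares these 2 lines and not the 2 alleles in general.

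Notch is a receptor that is also a transcription factor. A ligand on a neighbouring cell, such as a Jagged or Delta-like protein, exposes the receptor to a metalloprotease and then to gamma-secretase, and the freed intracellular domain enters the nucleus. There it binds the DNA-binding protein RBPJ, and a Mastermind-like protein such as MAML1 locks onto the pair and brings in histone acetyltransferases. Without the intracellular domain, RBPJ holds corepressors at the same genes. HES and HEY genes, which encode repressors, are the best-known targets. In the stomach, Notch signalling helps to keep epithelial progenitors dividing.

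Values are log2 signal as deposited, 1 per probe set, and differences are Y42C minus wild-type. The files do not state the log base, so each fold assumes log2. The lowest level counted as above background was the 95th percentile of 348 olfactory receptor genes, 5.14 on the Y42C array and 5.17 on the wild-type array, and 11802 genes reached it on at least 1 array. On the Y42C array 7.46% of these were higher by 2-fold or more, 9.80% were lower by as much, and their median difference was -0.07 with an SD of 0.768. RHOA had 16.30 on the Y42C array and 16.47 on the wild-type array. The epithelial markers EPCAM, KRT8, KRT18 and KRT19 differed by 0.23 or less in either direction, while CDH1 and 5 of 6 gastric mucosa markers (TFF1, TFF2, MUC5AC, MUC6 and GKN1) lay below the minimum on both arrays. RNA was from whole cultures, so more cells that use a gene and more RNA per cell cannot be told apart.

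Of the 10 genes, 9 reached the minimum on at least 1 array and 8 on both. MAML1, by which the set was chosen, was the 1 gene at least 2-fold higher and NOTCH2 the 1 gene at least 2-fold lower. Each is 11.1% of the 9, beside 7.46% of all genes higher and 9.80% lower. Of the others above the minimum on both arrays, JAG1, JAG2, RBPJ and MAML2 had positive and NOTCH1 and HES1 negative differences of less than 2-fold. HEY1 was above it on the Y42C array only, with a deposited difference of 0.98, and NOTCH3 was below the minimum on both arrays.

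**Figure D1:**
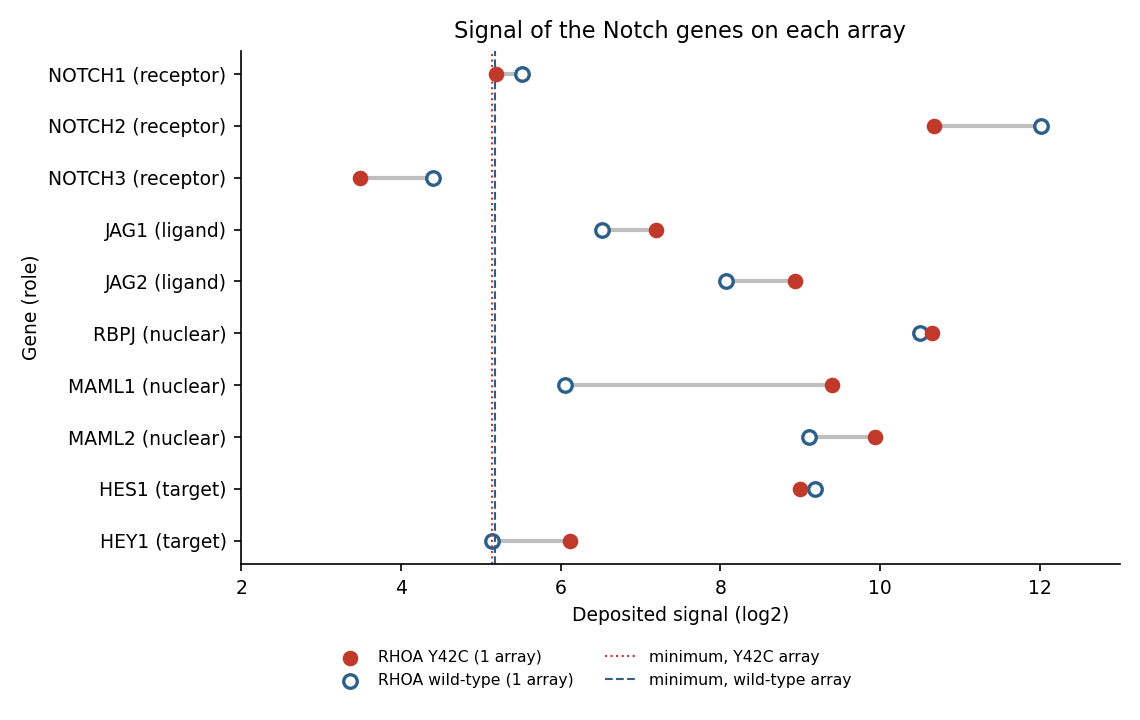
Deposited log2 signal (x axis) of the 10 Notch genes (y axis, with their role), as a filled point for the RHOA Y42C array and an open point for the RHOA wild-type array, 1 array each. Vertical lines mark the minimum of each array. The 2 points of MAML1 lie 3.34 apart, while those of RBPJ and HES1 lie 0.15 and 0.19 apart.

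MAML1 stood apart from its partners in the nuclear complex. Its probe set had 9.40 on the Y42C array and 6.06 on the wild-type array, a difference of 3.34 or 10.1-fold. Both values were above the minimum, the wild-type one by 0.89. Among the 11802 genes, 10 had a higher difference than MAML1, which placed it at rank 11. Of 1453 genes whose mean signal lay within 0.5 of that of MAML1, 3 had a higher difference, and 6.88% were at least 2-fold higher. The scaled median absolute deviation of the differences in that window was 0.726.

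The paralogs and the DNA-binding partner differed far less. MAML2, which can take the place of MAML1 in the complex, had 9.94 on the Y42C array and 9.11 on the wild-type array, a difference of 0.83. MAML3, the remaining Mastermind-like gene, had 6.47 on the Y42C array and 5.63 on the wild-type array, a difference of 0.84. Of the 3 Mastermind-like genes, MAML1, by which the set was chosen, passed 2-fold and its paralogs did not. Beside this, 7.46% of all genes were higher by as much. The paralogs still lay toward the higher end: 10.8% of all genes had a higher difference than MAML2 and 10.7% than MAML3. RBPJ, the DNA-binding protein that the complex is built on, had 10.65 on the Y42C array and 10.50 on the wild-type array, a difference of 0.15. Both arrays were close for RBPJ.

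Further genes of the activation complex differed in both directions. KAT2A, a histone acetyltransferase, had 9.65 on the Y42C array and 8.34 on the wild-type array, a difference of 1.31. CCNC, the cyclin that with CDK8 phosphorylates the Notch intracellular domain and so marks it for turnover, had 12.48 on the Y42C array and 13.75 on the wild-type array, a difference of -1.27. CDK8 itself had 10.81 on the Y42C array and 10.39 on the wild-type array. The cyclin was thus lower by 2.41-fold while the values of its kinase lay 0.42 apart in the other direction. Of 9 named genes with this role, RBPJ and the Mastermind-like genes included, all 9 reached the minimum. Past 2-fold were 2 higher genes, one of them MAML1 itself, and 1 lower, beside 7.46% and 9.80% of all genes. The median was 0.42, beside -0.07 for all genes, but it counts MAML1, by which the set was chosen, so it is a description only.

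MAML1 also serves as a coactivator of proteins outside the Notch pathway. Of 4 such partners listed, 3 have a named probe set. CTNNB1, the beta-catenin of Wnt signalling and cell junctions, had 12.81 on the Y42C array and 13.81 on the wild-type array, 2.0-fold lower and exactly at the threshold. RELA, an NF-kB subunit, had 10.40 on the Y42C array and 11.35 on the wild-type array, a difference of -0.95. MEF2C, a muscle and neuronal transcription factor, was below the minimum on both arrays (4.31 on the Y42C array and 4.91 on the wild-type array).

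None of the 6 genes nearest to MAML1 on chromosome 5 was as far apart on the 2 arrays. MAML1 was chosen by its difference, at rank 11 of 11802 genes, so few genes could match it. The contrast is a description only. In the RefSeq order of genes with a probe set, SPATA31J1, CBY3 and CANX come before MAML1 and LTC4S, MGAT4B and SQSTM1 after it. CANX, an endoplasmic reticulum chaperone and the nearest gene on one side, had 15.81 on the Y42C array and 15.87 on the wild-type array. MGAT4B, a glycosyltransferase, had 9.01 on the Y42C array and 7.97 on the wild-type array, a difference of 1.04. SQSTM1, an autophagy receptor, had 11.66 on the Y42C array and 11.86 on the wild-type array. SPATA31J1, CBY3 and LTC4S were below the minimum on both arrays. Over the 6 nearest genes on each side, 7 of 12 reached the minimum, and their differences ran between -0.99 (HNRNPH1) and 1.08 (TBC1D9B). Of these 7, 2 were past 2-fold, MGAT4B and TBC1D9B, both higher, beside 7.46% of all genes higher and 9.80% lower.

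**Figure D2:**
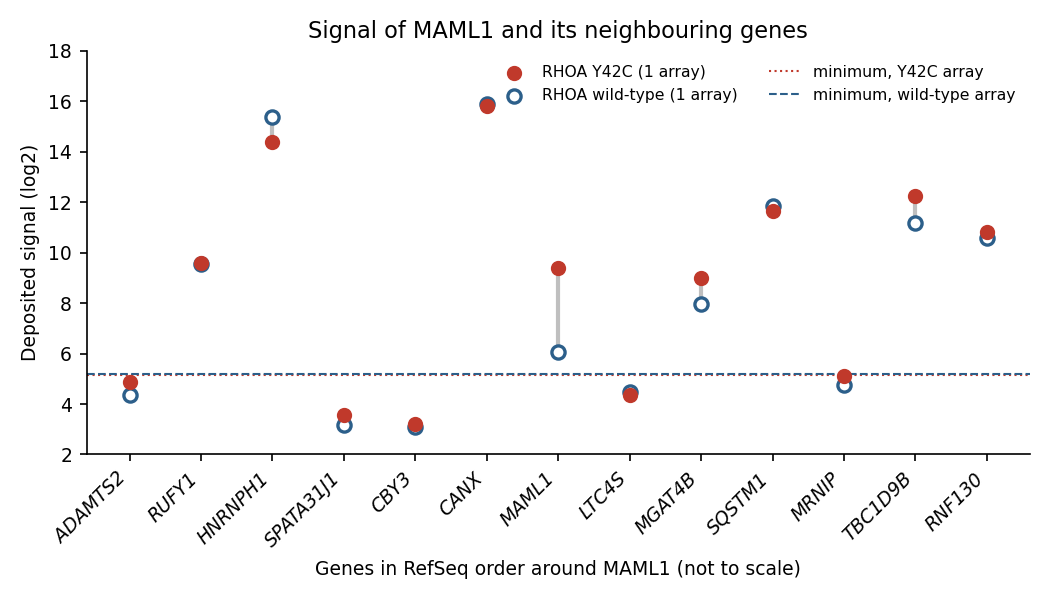
Deposited log2 signal (y axis) of MAML1 and the 6 nearest genes with a probe set on each side, in RefSeq order (x axis, not to scale), as a filled point for the RHOA Y42C array and an open point for the RHOA wild-type array. Horizontal lines mark the minimum of each array. The points of MAML1 are 3.34 apart, and those of the neighbours that reached the minimum at most 1.08.

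The genes whose pair of values lay nearest to the pair of MAML1 over the 2 arrays were NTRK3, PLXNC1, PSCA, ABHD12B and COL4A5, at distances between 0.475 and 0.765 log2 units. NTRK3, a neurotrophin receptor, had 9.22 on the Y42C array and 5.62 on the wild-type array. PLXNC1, a semaphorin receptor, had 8.86 on the Y42C array and 6.18 on the wild-type array. Likeness here rests on 2 values per gene and was fixed by the levels of different probe sets, so it is a description only.

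Of 3 receptors that reached the minimum, NOTCH2 was the 1 past 2-fold, and it was lower, as were 9.80% of all genes. NOTCH2 had 10.68 on the Y42C array and 12.01 on the wild-type array, a difference of -1.33 or 2.51-fold lower. Of 1145 genes whose mean signal lay within 0.5 of that of NOTCH2, 9.87% were at least 2-fold lower, and 90 differed by more than NOTCH2 in either direction. NOTCH1 had 5.19 on the Y42C array and 5.52 on the wild-type array, so it lay just above the minimum on both. NOTCH4, an endothelial receptor in normal tissue, had 6.29 on the Y42C array and 7.15 on the wild-type array, a difference of -0.86. NOTCH3 had 3.49 on the Y42C array and 4.40 on the wild-type array, and no fold is given because both values are below the minimum.

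Neither Jagged ligand passed 2-fold. JAG1, the gene mutated in most cases of Alagille syndrome, had 7.20 on the Y42C array and 6.52 on the wild-type array, a difference of 0.68. JAG2 had 8.93 on the Y42C array and 8.07 on the wild-type array, a difference of 0.86. Both differences were positive. Among the Delta-like ligands, DLL1 had 7.82 on the Y42C array and 7.81 on the wild-type array, and DLL4 had 5.33 on the Y42C array and 5.41 on the wild-type array. DLL3, DLK1 and DLK2 were below the minimum on both arrays. Of the 4 ligands that reached it, 0 were 2-fold apart, beside 7.46% of all genes higher and 9.80% lower. Of the 4 ubiquitin ligases that let a ligand pull on its receptor, 2 reached the minimum and 0 were 2-fold apart, beside the same shares of all genes. MIB1 had 9.53 on both arrays. NEURL1 had 8.27 on the Y42C array and 7.86 on the wild-type array, a difference of 0.41. MIB2 and NEURL1B were below the minimum on both arrays.

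Of 8 genes of receptor maturation and cleavage above the minimum, 1 was at least 2-fold higher and 0 lower, beside 7.46% and 9.80% of all genes. FURIN, the convertase that cuts newly made Notch on its way to the surface, had 10.03 on the Y42C array and 8.02 on the wild-type array, 4.03-fold higher. ADAM17, a metalloprotease that can release the receptor's outer part, was at the other end with 11.60 on the Y42C array and 12.35 on the wild-type array, a difference of -0.75. ADAM10, the main metalloprotease of ligand-induced cleavage, had 12.96 on the Y42C array and 13.23 on the wild-type array. Of the gamma-secretase subunits, APH1B had 6.56 on the Y42C array and 5.71 on the wild-type array, and NCSTN, PSEN2, APH1A and PSENEN lay between -0.41 and 0.34. The median of the 8 genes of this role was -0.095, beside -0.07 for all genes. Of the enzymes that add sugars to Notch, 2 reached the minimum: POGLUT1 had 7.22 on the Y42C array and 7.90 on the wild-type array, and RFNG had 8.51 on the Y42C array and 8.47 on the wild-type array.

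Among genes of receptor trafficking and turnover, DTX4 differed most. DTX4, a Deltex-family ubiquitin ligase, had 8.68 on the Y42C array and 6.33 on the wild-type array, 5.10-fold higher. DTX2 and DTX3, of the same family, differed by 0.05 and -0.05, and DTX1 was below the minimum on both arrays. NUMB, an endocytic adaptor that limits Notch, had 10.87 on the Y42C array and 9.94 on the wild-type array. Its relative NUMBL had 7.71 on the Y42C array and 8.41 on the wild-type array, so the 2 adaptors differed in opposite directions by less than 2-fold. FBXW7, which targets the phosphorylated intracellular domain for degradation, had 8.39 on the Y42C array and 7.82 on the wild-type array.

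Of 10 corepressor genes above the minimum, 2 were higher on the Y42C array by 2-fold or more and 0 were lower by as much, beside 7.46% and 9.80% of all genes. Both encode Groucho-family proteins, which HES repressors recruit to their own targets. TLE3 had 11.58 on the Y42C array and 9.57 on the wild-type array, 4.03-fold higher. TLE1 had 10.31 on the Y42C array and 8.91 on the wild-type array, 2.64-fold higher. TLE4 had 7.08 on the Y42C array and 6.38 on the wild-type array, and TLE2 was below the minimum on both. Of the 3 family members that reached the minimum, TLE4 thus did not pass 2-fold, with a difference of 0.70. SPEN, a corepressor that binds RBPJ, had 11.57 on the Y42C array and 10.86 on the wild-type array. KDM5A, a histone demethylase found with RBPJ, had the most negative difference of the role, -0.61, with 7.20 on the Y42C array and 7.81 on the wild-type array.

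Of the HES and HEY targets, 0 passed 2-fold in the deposited values, where 7.46% of all genes were higher and 9.80% lower by as much. Only HES1 and HES4 of them reached the minimum on both arrays, too few for the count to describe the group. HES1 had 9.0 on the Y42C array and 9.19 on the wild-type array, a difference of -0.19. HEY1 had 6.12 on the Y42C array and 5.14 on the wild-type array, where it was below the minimum, so it was at least 1.93-fold higher. Its deposited difference of 0.98 lay just under the threshold and became 1.04 once each array was centred on its median.

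NRARP, a small feedback inhibitor that Notch induces, had 6.24 on the Y42C array and 4.85 on the wild-type array, at least 2.10-fold higher since the wild-type value was below the minimum. HES4 had 6.87 on the Y42C array and 6.98 on the wild-type array. HES5, a neural progenitor target, had 4.95 on the Y42C array and 5.31 on the wild-type array, at least 1.13-fold lower. In the deposited values NRARP was thus the 1 gene among the HES, HEY and NRARP targets to pass 2-fold, and its exact difference is not known. The folds of HEY1 and HES5 are lower bounds too, so either may also lie past 2-fold. HEYL (4.41 on the Y42C array and 5.04 on the wild-type array) and HEY2 (4.29 and 4.22 in the same order) were below the minimum on both arrays.

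Of 3 targets that many other pathways also drive, MYC and CDKN1A passed 2-fold and CCND1 did not. Of all 8 targets above the minimum, NRARP included, 3 were at least 2-fold higher and 0 lower, beside 7.46% and 9.80% of all genes. MYC, a growth-promoting transcription factor, had 10.22 on the Y42C array and 8.15 on the wild-type array, 4.20-fold higher. CDKN1A, the cell cycle inhibitor p21, had 10.61 on the Y42C array and 9.13 on the wild-type array, 2.79-fold higher. CCND1, cyclin D1, had 15.19 on the Y42C array and 14.65 on the wild-type array, a difference of 0.54. MYC, CDKN1A and CCND1 are not specific to Notch, and no value here tells apart the pathways that act on them.

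The proximal promoters of 5 genes are shown because RBPJ, through which the complex that holds MAML1 reaches DNA, recognises a short core, TGGGAA. Each line gives the 120 bases before the RefSeq start on the gene's own strand, and all coordinates are GRCh38.p14. Capitals mark exact matches to these letters only, so a capital stretch need not be an RBPJ site. HES1, HES4, HES5 and NRARP stand for the targets, and MAML1 is the gene the set was chosen by.
HES1 (chr3:194136028-194136147, + strand): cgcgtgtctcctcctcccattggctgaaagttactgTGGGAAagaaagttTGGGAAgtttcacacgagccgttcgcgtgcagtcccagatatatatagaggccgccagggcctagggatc
HES4 (chr1:1000098-1000217, - strand): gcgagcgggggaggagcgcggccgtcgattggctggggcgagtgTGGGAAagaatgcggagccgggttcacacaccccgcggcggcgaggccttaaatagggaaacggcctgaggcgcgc
HES5 (chr1:2530264-2530383, - strand): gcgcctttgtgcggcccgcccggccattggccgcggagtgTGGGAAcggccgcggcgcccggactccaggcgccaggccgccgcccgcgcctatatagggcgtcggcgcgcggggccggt
NRARP (chr9:137302272-137302391, - strand): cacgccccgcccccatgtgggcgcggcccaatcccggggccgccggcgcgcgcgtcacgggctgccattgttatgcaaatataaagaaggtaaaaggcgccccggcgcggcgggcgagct
MAML1 (chr5:179732702-179732821, + strand): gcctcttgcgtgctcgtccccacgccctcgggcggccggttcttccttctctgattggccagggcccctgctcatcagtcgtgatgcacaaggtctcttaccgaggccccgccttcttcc

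The core was searched as TGGGAA and its reverse complement TTCCCA on both strands, over the 250 bases before each start. Other forms of the core were not searched, so the matches do not give the number, place or pairing of RBPJ sites. HES1 held 2 matches, beginning 84 and 70 bases before the start and both on the gene's strand. HES4 held 1 match, 76 bases before the start. HES5 held 2, at 80 bases and, on the other strand, at 224 bases before the start. HEY2 and HEYL held 1 and 2 matches. NRARP, CDKN1A and MAML1 held no exact match in this window.

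Of 7 target genes with a RefSeq promoter window, 5 held an exact match. Among all 35116 windows, 20.8% held at least 1 match and 2.9% held 2 or more. Counted by gene, 24.6% of all 27305 genes held a match in at least 1 window, beside 25.5% of the 55 Notch genes with a window. Of the 10 genes that open this account, 9 have a promoter window, of which HES1 and RBPJ held a match, RBPJ at 1 of its 5 starts. That is 22.2% of the 9, near the share of all genes. Among targets above the minimum on both arrays and with a window searched, HES1 and HES4 held a match and had differences of -0.19 and -0.11. CDKN1A held none and had 1.48. MYC (2.07) and CCND1 (0.54) were above the minimum on both arrays too, but they and HEY1 had no window in the search. These are too few genes to compare. A match is only a run of letters, and a window without one says nothing about RBPJ binding at the gene, inside the window or elsewhere.

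Over the whole pathway, 54 of the 65 named Notch genes, the 10 included, reached the minimum on at least 1 array. At least 2-fold higher on the Y42C array were 9 (MAML1, FURIN, DTX4, KAT2A, TLE1, TLE3, NRARP, MYC and CDKN1A), or 16.7%, beside 7.46% of all genes. At least 2-fold lower were 2 (NOTCH2 and CCNC), or 3.70%, beside 9.80% of all genes. Without MAML1, by which the set was chosen, 8 of 53 (15.1%) were at least 2-fold higher. These 8 include MYC and CDKN1A, which are not specific to Notch. The lists were drawn up with earlier results of these data known. Leaving out MAML1 does not remove that choice, so the shares are a description and test nothing. The median difference was 0.075, and 0.07 without MAML1, beside -0.07 for all genes. Of the 54 genes, 31 were higher, 22 lower and 1 equal. NRARP, HEY1 and HES5 reached the minimum on 1 array only, which favours genes that differ. Among the 51 that reached it on both arrays, 8 were higher and 2 lower by at least 2-fold, beside 6.90% and 9.43% of the 10946 genes that did so.

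**Figure D3:**
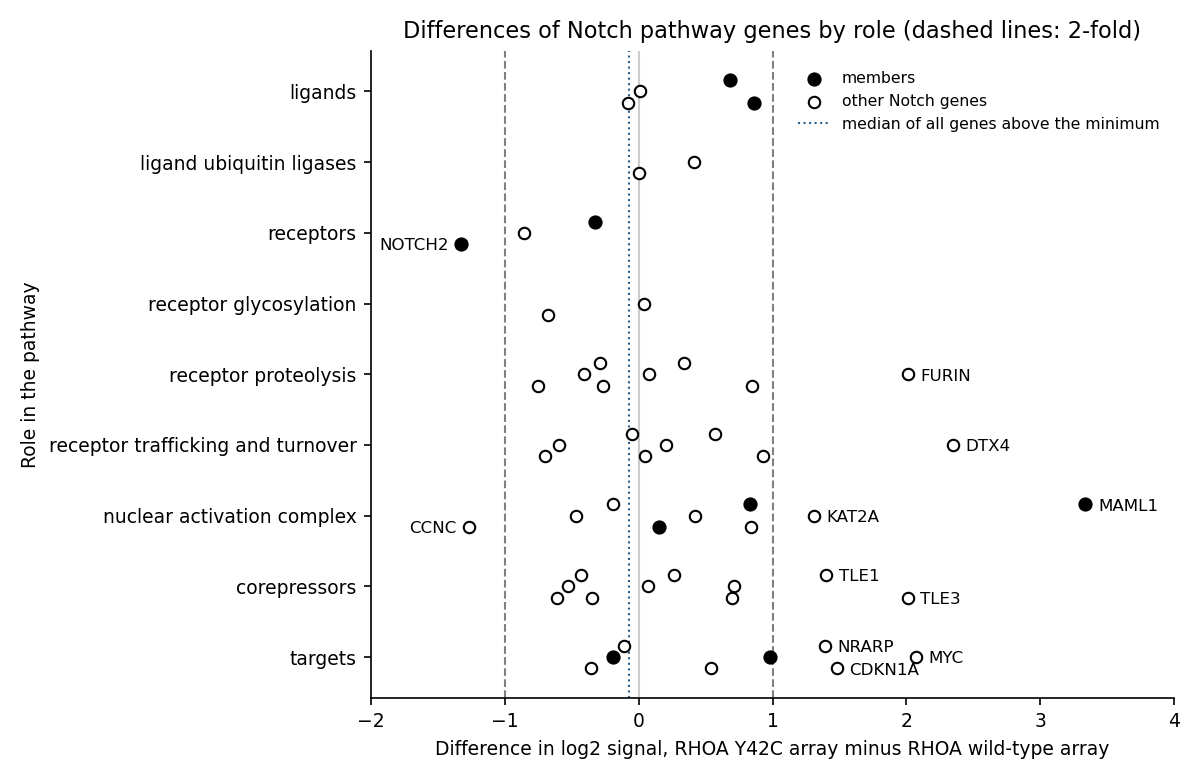
Difference in log2 signal, RHOA Y42C array minus RHOA wild-type array (x axis), of the 54 Notch genes that reached the minimum, by role (y axis). Filled points are the 10 genes that open the account, less NOTCH3, and open points the other Notch genes. The 9 genes at least 2-fold higher and the 2 at least 2-fold lower (beyond the dashed lines) are named, and vertical offsets within a role carry no value.

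**Figure D4:**
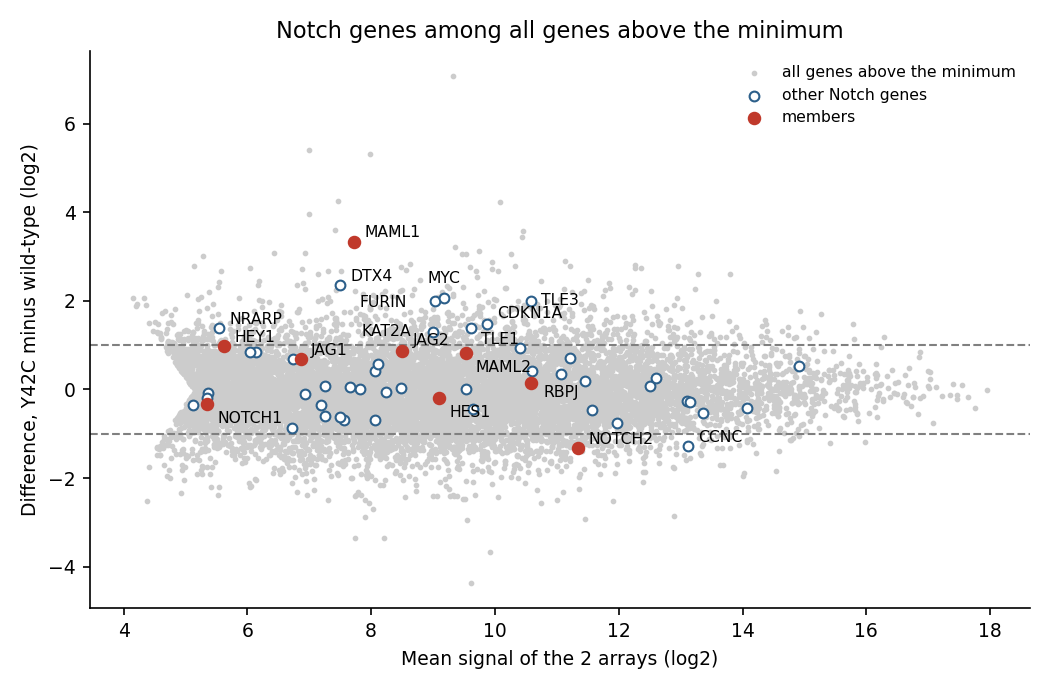
Difference in log2 signal, Y42C minus wild-type (y axis), against the mean signal of the 2 arrays (x axis), for the 11802 genes that reached the minimum (grey), with the other Notch genes as open points and the 9 of the 10 genes that reached it as filled points. MAML1, at 3.34, lies above the mass of genes of like signal, and the other filled points lie between -1.33 and 0.98.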

How the data were processed

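The deposited table covers 21448 probe sets on both arrays, with values between 2.23 and 18.16 that were read as log2 signal from their range. The authors made these deposited log2 values with Affymetrix Expression Console, per the submitters' processing notes. How background, probe summary and normalization were handled, the version and any genome build are not given in the sources. The values were used as deposited. The platform annotation named 17709 probe sets, and all 17687 genes matched the RefSeq gene table through their Entrez identifier, with 0 symbols updated. The mean was taken where a gene had several probe sets (20 genes). Promoter sequences and gene order are from RefSeq, GRCh38.p14.

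Genes entered the counts if either array was at or above its minimum, the 95th percentile of its olfactory receptor genes. Where the dimmer array was below its minimum, the fold is a lower bound, the brighter value over that minimum. Called genes differ by at least 2-fold. With 1 array per group no test was run, and precision is limited by the number of arrays. Members and lists were chosen with earlier results of these data known. The rule for named genes took the 10 genes, other Notch genes at least 2-fold apart, the ends of each role, MAML3, the MAML1 partners, 3 neighbours of MAML1 on each side, the 5 genes with the most similar pair of values, RHOA and the cell type markers. HNRNPH1, TBC1D9B and further Notch genes were named after their values were seen. Markers of other cell types were listed too. Of leukocyte markers, PTPRC (5.39 on the Y42C array and 4.61 on the wild-type array), CD3E (5.67 and 4.70 in the same order) and CD14 (5.67 and 7.45) reached the minimum on at least 1 array, as did the endothelial PECAM1 and VWF (2 of 4) and the fibroblast COL1A1 (1 of 4); their part in the results was not tested. The calling code was tested on simulated data. The software was Python 3.11.15 with NumPy 2.4.6, pandas 2.3.3, matplotlib 3.10.9 and statsmodels 0.14.6.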

Additional observations from a re-analysis of the deposited data

How the results depend on the processing

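The alternatives were centring of each array on its median, no minimum, quantile normalization, subtraction of a lowess trend on level with a span of 0.3, the array median as minimum, values below the minimum set to it, a constant of 16 added to the linear values, and the brightest probe set of a gene. Under these 8 the MAML1 difference lay between 3.06 and 3.47 and that of NOTCH2 between -1.33 and -1.24. The changes of minimum, values set to the minimum and the brightest probe set could not move either difference. Both genes have 1 probe set and lay above the minimum on both arrays. Only the other alternatives could change these values. NOTCH1 and HEY1 drop out with the array median as minimum, which left 7 alternatives for them and 8 for the other 7 genes above the minimum. None of these differences changed sign, and HEY1 was the 1 gene to cross 2-fold, at 1.04 after centring. The count of Notch genes at least 2-fold higher lay between 8 and 10 and the count lower was 2 under each of the 8. At a threshold of 1.5-fold, 18 of the 54 Notch genes above the minimum were higher and 8 of 54 lower, beside 17.8% and 23.4% of all genes. At 3-fold, 5 of the 54 (MAML1, FURIN, DTX4, TLE3 and MYC) were higher and 0 lower, beside 2.20% and 1.99% of all genes. No paired analysis was possible because each group holds 1 array, and for the same reason no replicate could be left out. NOTCH1 and the wild-type value of HEY1 lay within 0.4 of the minimum, so their differences are near the limit of what these arrays measure.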
